A study of Mus musculus with 4 samples.

Results

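The transcripts described here encode surface proteins that are used to sort mammary stem, progenitor and mesenchymal cells. They are given by a list of 10 genes (Cd24a, Ly6a, Ly6e, Thy1, Prom1, Procr, Nt5e, Cd34, Plet1 and Eng), and a probe set was taken as a member when the platform's annotation gave it that gene symbol alone. Of these 10 genes, 9 had such a probe set, with 1 probe set each, among 35556 on the array. Ly6a, which encodes the stem cell antigen Sca-1, is not reported here because no probe set is listed under its name in the annotation used.

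RNA was measured in 4 clonal cell lines with 1 Affymetrix mouse gene array per line. The lines were cloned from 1 mammary tumor that arose in a female FVB Tg MMTV/neu mouse (FVB/N background), which carries the rat neu (ErbB2) transgene under the mouse mammary tumor virus promoter. M1 and M2 are mesenchymal-like clones from cells sorted for low CD24 and low neu and were cultured in the mammary medium MEGM with 2% serum, bovine pituitary extract, epidermal growth factor, insulin and hydrocortisone. E1 and E2 are epithelial clones from cells sorted for high CD24 and high neu and were grown in RPMI with 20% serum. Cell type and medium therefore cannot be told apart, each line is a single clone, and all 4 lines share the tumor and the transgene. Levels are log2 values as deposited by the authors, where a difference of 1 is a 2-fold ratio, and the value at which a probe set reads background is unknown. In a whole culture, a lower share of expressing cells and less RNA per cell cannot be told apart.

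Mammary epithelium consists of a luminal layer and a basal layer, and the cells of each are separated by panels of surface proteins. CD24, a small heavily glycosylated protein held in the membrane by a glycosylphosphatidylinositol (GPI) anchor, is high on luminal cells, lower on basal cells and low on most stroma. Prominin-1 (CD133, from Prom1) marks luminal cells that respond to hormones, whereas the endothelial protein C receptor (from Procr) has been used to mark multipotent basal stem cells. Endoglin (Eng), the ecto-5'-nucleotidase CD73 (Nt5e) and Thy-1 (CD90) together define cultured mesenchymal stromal cells, and CD34 marks blood progenitors, endothelium and some stromal cells.

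The labelled types were checked on marker transcripts. Of 5 epithelial markers, Cdh1 and Epcam were lower in M1 and M2, and Krt8, Krt18 and Krt19 did not pass the test. Krt8 was at 13.44 and 13.69 in M1 and M2, against 13.27 and 13.60 in E1 and E2. Krt18 was at 13.12 and 13.48 in M1 and M2, against 13.47 and 13.69 in E1 and E2. Krt19 was between 6.33 and 6.48 in all 4 lines. Of 5 mesenchymal markers, Zeb1, Zeb2, Twist1 and Cdh2 were higher in M1 and M2, and Vim had a difference of 0.83 (standard error 0.15, limma adjusted p = 0.0896). E-cadherin (Cdh1) was at 6.70 and 6.51 in M1 and M2, against 12.15 and 12.31 in E1 and E2. Limma called 0 of 4 basal, 0 of 5 leukocyte and 0 of 5 endothelial markers, against 3.73% of all probe sets. The unadjusted p was under 0.05 for 0, 0 and 1 of them, against 18% of all probe sets. The leukocyte antigen Ptprc was between 5.51 and 5.88 and the endothelial antigen Pecam1 between 5.74 and 5.90 in all 4 lines. Among the endothelial markers, Cdh5 and Tek had larger differences between the types than Pecam1, without a call. Cd68, a lysosomal protein that macrophages hold in large amounts, was at 10.59 and 11.60 in M1 and M2, against 10.66 and 8.77 in E1 and E2, and its part in the results below was not tested.

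To ask which surface marker transcripts differed with cell type, M1 and M2 were compared with E1 and E2 by limma across all 23410 probe sets with a gene symbol, which called 874 (3.73%) at an adjusted p under 0.05. It called 402 (1.72%) higher and 472 (2.02%) lower in M1 and M2. Among the 9 members, Procr was called higher and Prom1 was called lower. Both mesenchymal-like lines also lay above both epithelial lines for Cd24a and below them for Plet1, without a call. The lines overlapped for Ly6e, Thy1, Nt5e, Cd34 and Eng. As a background, both M lines lay above both E lines in 24.2% and below them in 23.8% of all probe sets tested.

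**Figure D1:**
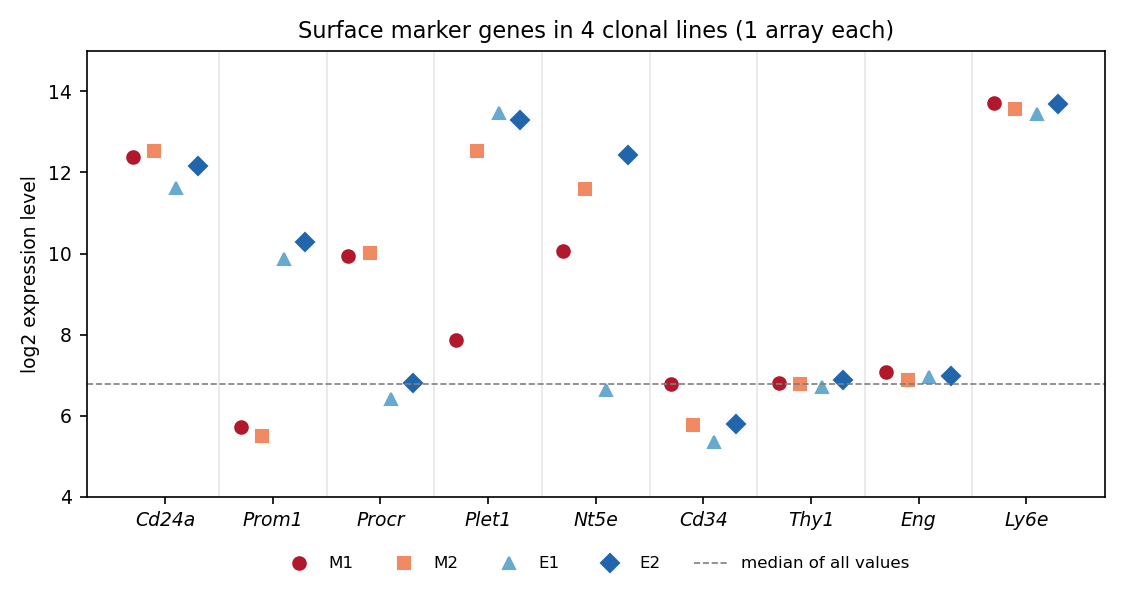
Each point is the log2 expression level of a surface marker gene (horizontal axis) in a clonal line, with 1 array per line, and the dashed line is the median of all values on the 4 arrays, 6.78. Prom1 is low and Procr high in M1 and M2, Plet1 is low in M1 and Nt5e is low in E1.

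Cd24a is the gene of the antigen used in the sort, and its RNA was not lower in the CD24-low lines. Its level was 12.39 in M1 and 12.53 in M2, against 11.61 in E1 and 12.15 in E2. The CD24-low lines were thus the upper pair, and E1 was the lowest line. The mean was 12.46 ± 0.10 in M1 and M2 and 11.88 ± 0.38 in E1 and E2 (SD, n = 2 each). The log2 difference was 0.58 with a standard error of 0.22 and did not pass (limma adjusted p = 0.309). Its 95% interval ran between -0.04 and 1.20. The sort measured protein on cells of the tumor, before cloning and culture, whereas the arrays measured RNA of the cultured clones. The mouse genome holds intronless copies of Cd24a, and their part in the signal of this probe set was not tested. The other sorted antigen was the rat neu protein. The probe set of the mouse gene Erbb2 was at 10.58 and 11.03 in M1 and M2, against 11.83 and 11.95 in E1 and E2 (difference -1.09, standard error 0.19, limma adjusted p = 0.0852). Whether this probe set also reads RNA of the rat transgene was not tested.

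Prom1 encodes a pentaspan protein of plasma membrane protrusions and had the largest difference between the types of the 9 genes. Its level was 5.72 in M1 and 5.50 in M2, against 9.86 in E1 and 10.28 in E2. Over the types its log2 difference was -4.46 with a standard error of 0.19 (limma adjusted p = 0.00398), a 22.0-fold lower array level in the mesenchymal-like lines. Both M lines lay below the median of all values, 6.78. Prom2, the paralog of Prom1, was also called. It was at 6.85 and 7.25 in M1 and M2, against 10.13 and 10.33 in E1 and E2 (difference -3.17, standard error 0.19, limma adjusted p = 0.00792). The clones of each type differed by 0.21 (M1 minus M2) and 0.42 (E2 minus E1) for Prom1.

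Procr encodes a receptor that binds protein C and promotes its activation. Its level was 9.95 in M1 and 10.01 in M2, against 6.42 in E1 and 6.80 in E2. Opposite to Prom1, its log2 difference was 3.37 with a standard error of 0.17 (limma adjusted p = 0.00550), or 10.3-fold. M1 and M2 differed by only 0.06. The calls of Prom1 and Procr were lost without E1 (adjusted p = 0.0618 for both) and without E2 (adjusted p = 0.0624 for both), as were all 874 calls, while the differences stayed between -4.67 and -4.25 for Prom1 and between 3.18 and 3.56 for Procr when any 1 line was left out. With low values raised to the median of the file, Prom1 had an adjusted p of 0.0940 and a difference of -3.29. These p-values measure the spread between single cultures of the clones, since nothing in the labels names repeat cultures.

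**Figure D2:**
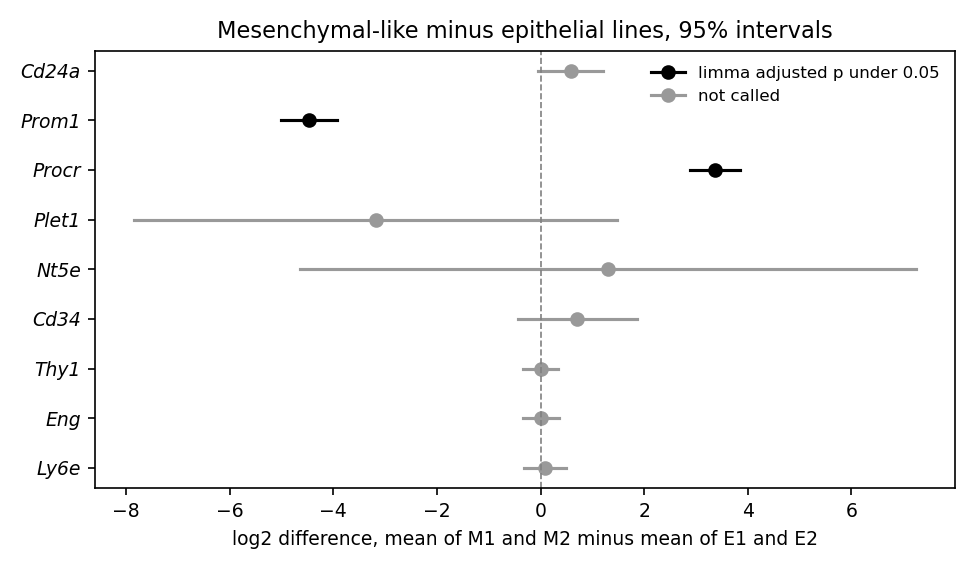
Points are log2 differences of the mean of M1 and M2 minus the mean of E1 and E2 and lines are 95% intervals from limma, in black where the adjusted p is under 0.05. Prom1 (-4.46) and Procr (3.37) are called, and the intervals of Plet1 and Nt5e are the widest because the clones of a type differ.

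Plet1, a GPI-anchored glycoprotein of luminal and other epithelial progenitors, differed between the mesenchymal-like clones. Its level was 7.86 in M1 and 12.54 in M2, against 13.48 in E1 and 13.29 in E2. M2 was thus close to the epithelial lines and M1 stood apart, 25.6-fold below M2. Over the types it differed by -3.18 on the log2 scale, with a standard error of 1.67 (limma adjusted p = 0.455). Without M2, when M1 alone is set against E1 and E2, it was -5.52 (limma adjusted p = 0.00285). M1 is the line that formed no tumor in the study, and it was compared with E1, E2 and M2 by limma. The level of Plet1 was 7.86 in M1, against 13.10 ± 0.50 in E1, E2 and M2 (SD, n = 3), with a log2 difference of -5.24 (standard error 0.45, limma adjusted p = 0.170). In this comparison limma called 0 of the 9 members, against 22 (0.094%) of all probe sets, 0.0854% higher and 0.00854% lower in M1. Without adjustment, 2 members (Plet1 and Cd34) and 1640 probe sets (7.01%) had a p under 0.05. M1 has 1 array and is assumed to vary like the other lines. In a count chosen after the values were seen, M1 was at least 10-fold below every other line in 9 probe sets (0.0384%). Plet1 and the sorting gene Lgr6, described below, were among them.

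Nt5e encodes CD73, which forms extracellular adenosine by removing phosphate from AMP. It differed between the epithelial clones, with a level of 10.07 in M1 and 11.58 in M2, against 6.63 in E1 and 12.42 in E2. E2 was the highest line and E1 the lowest, 55.4-fold apart, and the types overlapped. The next lowest line, M1, was 10.8-fold above E1. The log2 difference over the types was 1.30 with a standard error of 2.13 (limma adjusted p = 0.853). It was -1.60 without E1 and 4.19 without E2, so its direction was set by which epithelial clone was kept. By the same later count, E1 was at least 10-fold below every other line in 8 probe sets (0.0342%), Nt5e among them, M2 in 7 (0.0299%) and E2 in 6 (0.0256%). Of 14 other genes of extracellular adenosine, 9 were named on the array. Limma called 0 of the 9 between the types, against 3.73% of all probe sets. Their median difference was -0.03, and 2 had an unadjusted p under 0.05, against 18% of all probe sets. These were Acpp, higher in M1 and M2, and Slc29a1, lower. Acpp was at 9.30 and 7.03 in M1 and M2, against 5.86 and 5.66 in E1 and E2 (difference 2.40, standard error 0.81, limma adjusted p = 0.255). Slc29a1 had a difference of -0.72 (standard error 0.13, limma adjusted p = 0.0871).

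Cd34, a sialomucin, was low in all lines, at 6.79 in M1 and 5.77 in M2, against 5.34 in E1 and 5.80 in E2. M1 was the highest line, near the median of all values, 6.78, and M2 lay between the epithelial lines. Raising low values to that median left log2 differences of 0.006 over the types and 0.012 for M1 over E1, E2 and M2. Both were smaller than for the deposited levels, which follow. The log2 difference was 0.71 over the types (standard error 0.41, limma adjusted p = 0.505), and 1.15 for M1 over E1, E2 and M2 (standard error 0.25, limma adjusted p = 0.515).

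Thy1 and Eng had nearly the same level in all 4 lines. Thy1, a GPI-anchored immunoglobulin-like protein, was at 6.82 and 6.77 in M1 and M2, against 6.70 and 6.88 in E1 and E2. Eng, a co-receptor of the TGF-beta family, was at 7.08 and 6.88 in M1 and M2, against 6.96 and 6.99 in E1 and E2. Their differences over the types were 0.00 (95% interval between -0.33 and 0.34) and 0.01 (95% interval between -0.34 and 0.36), with limma adjusted p values of 0.994 and 0.987. Both genes read close to the median of all values, 6.78, and whether they exceed background is not known.

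Ly6e, a GPI-anchored relative of Ly6a that is induced by interferon, was at 13.72 and 13.57 in M1 and M2, against 13.44 and 13.68 in E1 and E2. It was high and even, with a log2 difference of 0.08 over the types (95% interval between -0.32 and 0.48, limma adjusted p = 0.859).

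Differences between the clones of a type were taken directly and carry no test, since each line has 1 array. M1 and M2 were at least 2-fold apart for 3 of 9 members, Plet1 (-4.68), Nt5e (-1.52) and Cd34 (1.02), and for 5.86% of all probe sets (3.22% higher and 2.64% lower in M1). With low values raised to the median of the file, Cd34 dropped out and 2 members remained. E2 and E1 were at least 2-fold apart for Nt5e alone (5.79), and for 2.24% of all probe sets (1.25% higher and 0.987% lower in E2). All 4 lines fell inside a 2-fold range for 4 of 9 members (Cd24a, Ly6e, Thy1 and Eng) and for 81.8% of all probe sets. They spanned at least 4-fold for 4 of 9 (Prom1, Procr, Plet1 and Nt5e) and for 7.06% of all probe sets. By membrane anchor, 0 of 5 measured GPI-anchored members (Cd24a, Ly6e, Thy1, Nt5e and Plet1) and 2 of 4 transmembrane members were called between the types, against 3.73% of all probe sets, and the difference between the anchors was not tested.

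**Figure D3:**
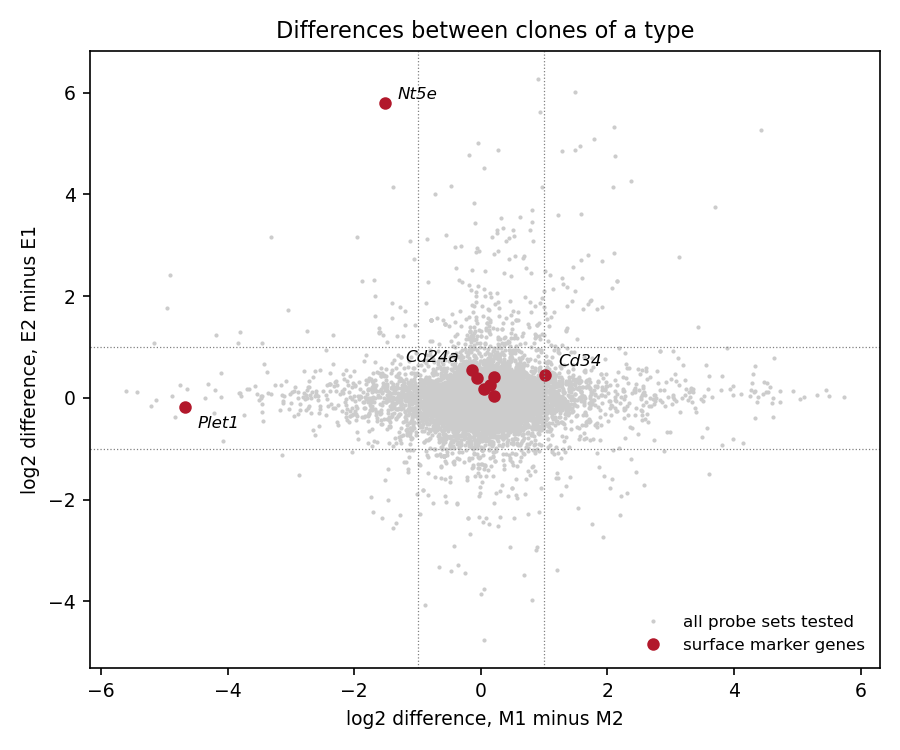
Each point is a probe set with the log2 difference of M1 minus M2 on the horizontal axis and of E2 minus E1 on the vertical axis, grey for all probe sets tested and red for the 9 surface marker genes; dotted lines mark 2-fold. Nt5e lies at 5.79 between the epithelial clones and Plet1 at -4.68 between the mesenchymal-like clones.

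The promoters of the 4 genes with the largest span are shown because each had a different order of the lines. They come from RefSeq (GRCm38.p6) and run 250 bases before to 50 bases after a gene start, and 6 of the 10 listed genes had such a window. Capitals mark 4 motifs searched on both strands, the E-box CACCTG bound by Zeb and Snail factors, the AP-1 motif TGANTCA, the GC box GGGCGG and the TATA box TATAAA.
Prom1, chr5:44101687-44101986, minus strand: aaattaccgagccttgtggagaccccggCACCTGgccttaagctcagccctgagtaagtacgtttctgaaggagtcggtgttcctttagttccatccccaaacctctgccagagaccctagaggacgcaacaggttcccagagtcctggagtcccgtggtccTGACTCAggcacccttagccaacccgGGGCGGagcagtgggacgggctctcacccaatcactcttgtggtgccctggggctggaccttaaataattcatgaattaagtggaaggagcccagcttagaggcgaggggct
Procr, chr2:155750967-155751266, plus strand: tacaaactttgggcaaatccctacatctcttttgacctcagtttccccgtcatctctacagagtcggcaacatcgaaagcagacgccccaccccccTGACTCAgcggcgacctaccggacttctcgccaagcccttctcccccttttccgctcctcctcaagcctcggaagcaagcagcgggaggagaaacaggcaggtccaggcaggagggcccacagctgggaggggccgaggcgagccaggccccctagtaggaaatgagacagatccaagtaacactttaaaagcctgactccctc
Plet1, chr9:50494275-50494574, plus strand: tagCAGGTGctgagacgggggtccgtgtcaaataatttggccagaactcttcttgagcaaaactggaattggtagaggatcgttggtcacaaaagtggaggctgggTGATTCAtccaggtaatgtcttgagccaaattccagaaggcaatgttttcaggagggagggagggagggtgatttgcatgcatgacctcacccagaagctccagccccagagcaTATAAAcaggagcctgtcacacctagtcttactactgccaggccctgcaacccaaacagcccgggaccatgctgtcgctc
Nt5e, chr9:88327359-88327658, plus strand: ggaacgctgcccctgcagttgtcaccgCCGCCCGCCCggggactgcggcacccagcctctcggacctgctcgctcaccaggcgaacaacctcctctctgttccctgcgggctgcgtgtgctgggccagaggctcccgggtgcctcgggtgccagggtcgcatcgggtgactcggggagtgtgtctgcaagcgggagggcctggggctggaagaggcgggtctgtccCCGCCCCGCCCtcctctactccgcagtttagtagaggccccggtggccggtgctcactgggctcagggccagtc

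Prom1 had 2 windows, for 2 starts. The one printed held 1 E-box, 222 bases before the start, 1 AP-1 motif and 1 GC box, and the other (chr5:44094719-44095018) held 1 AP-1 motif and neither an E-box nor a GC box. The Procr window held no E-box and 1 AP-1 motif, 154 bases before the start. The Plet1 window held 1 E-box, 1 AP-1 motif and 1 TATA box, 30 bases before the start. The Nt5e window, from a gene whose RNA was 55.4-fold apart between E2 and E1, held 4 GC boxes, which overlapped in pairs, and none of the other motifs. Of 32851 windows of this length, 20.2% held the E-box, 7.81% the AP-1 motif, 35.7% the GC box and 13.6% the TATA box. A match describes these letters and is not a binding site.

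Other surface genes used in mammary sorting were set beside the members. Of 17 such genes with 18 probe sets, 0 were called higher and 4 lower in M1 and M2, against 1.72% and 2.02% of all probe sets. Their median log2 difference was -0.55, against 0.00 over all probe sets tested. The 4 were the adhesion protein Epcam (-7.12), the stem cell factor receptor Kit (-5.65), the integrin subunit Itgb3 (-4.56), also known as CD61, and the Notch ligand Dll1 (-4.43), with limma adjusted p values of 0.00252, 0.00284, 0.00252 and 0.0210. Kit and Itgb3, both used to enrich luminal progenitors, were at 5.75 and 6.33 in M1 and at 6.01 and 6.29 in M2, against 11.37 and 10.82 in E1 and 11.69 and 10.92 in E2. Itga2, on the same list, ran the other way without a call (difference 2.05, standard error 0.44, limma adjusted p = 0.119). It was at 9.54 and 10.34 in M1 and M2, against 7.44 and 8.34 in E1 and E2. Cd14 overlapped between the types, at 9.77 and 8.92 in M1 and M2, against 9.12 and 10.91 in E1 and E2. Lgr6 was low in M1 alone, as Plet1 was, at 7.01 in M1 and 11.19 in M2, against 10.60 in E1 and 11.82 in E2. For Lgr6, M1 was 12.0-fold below the next line, and the types overlapped. The neutral endopeptidase Mme (CD10) was at 9.40 and 5.89 in M1 and M2, against 12.39 and 12.32 in E1 and E2, and was not called (adjusted p = 0.172). The integrin subunits most used with CD24, Itga6 (CD49f) and Itgb1 (CD29), had differences of -0.11 and -0.35 (standard errors 0.11 and 0.14) and were not called.

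Of 12 mesenchymal stromal surface genes, 1 was called higher and 0 lower, against 1.72% and 2.02% of all probe sets. Their median difference was 0.10. The adhesion molecule Vcam1 was at 7.69 and 8.32 in M1 and M2, against 5.66 and 5.75 in E1 and E2 (difference 2.30, standard error 0.25, limma adjusted p = 0.0299). The receptor Pdgfra was at 8.71 and 10.20 in M1 and M2, against 7.78 and 7.83 in E1 and E2, without a call. Mcam ran the other way, at 7.72 and 7.09 in M1 and M2, against 9.09 and 8.48 in E1 and E2 (difference -1.38, adjusted p = 0.142), as did Anpep (-0.81, adjusted p = 0.0582), and neither was called. Pdgfrb was at 9.51 in M1, against 5.92, 5.86 and 6.03 in M2, E1 and E2.

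Among 33 relatives of Ly6a and Ly6e in the Ly6 and uPAR family, 28 were named on the array. Limma called 1 of them between the types, against 3.73% of all probe sets, and their median difference was 0.10. Lynx1, a modulator of nicotinic receptors, was at 11.23 and 9.85 in M1 and M2, against 6.70 and 6.35 in E1 and E2 (difference 4.02, standard error 0.51, limma adjusted p = 0.0445). Ly6i, next to Ly6a on the chromosome, was highest in M1 without a call between the types, as was Ly6f, while Ly6d and Ly6k were lowest in M1. Ly6i was at 6.39 and 5.59 in M1 and M2, against 4.94 and 4.91 in E1 and E2. Ly6f was at 6.99 and 5.49 in M1 and M2, against 5.40 and 5.58 in E1 and E2. Genes of this cluster resemble each other in sequence, so signal from one at the probes of another was not tested, and neither gene stands in for Ly6a.

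**Figure D4:**
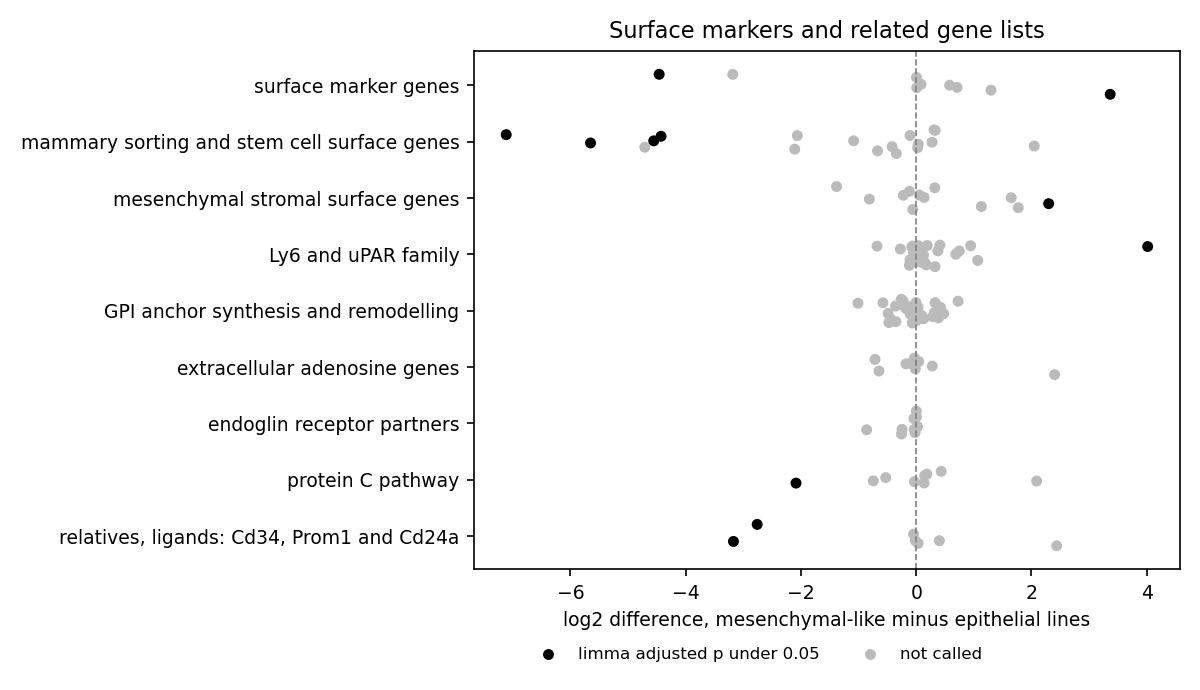
Each point is a probe set with its log2 difference, M1 and M2 minus E1 and E2, on the horizontal axis, by gene list from top to bottom, in black where limma called it. Called genes lie on both sides of 0 for the 9 surface markers. Of the 18 probe sets of other mammary sorting genes, 4 are called, all lower in M1 and M2, against 2.02% of all probe sets called lower.

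Partners of the members were also compared between the types, where 3.73% of all probe sets were called. Of 31 genes that build or remodel GPI anchors, 30 were named on the array and limma called 0 of their 32 probe sets (8 at an unadjusted p under 0.05, against 18% of all probe sets), with a median of -0.05. For Procr, 9 of 11 protein C pathway genes were named and 1 was called, tissue factor F3, at 9.17 and 9.16 in M1 and M2, against 11.29 and 11.21 in E1 and E2 (difference -2.09, standard error 0.11, limma adjusted p = 0.00550). Thrombomodulin (Thbd), with which the receptor acts on endothelium, was at 5.71 and 6.09 in M1 and M2, against 5.73 and 6.14 in E1 and E2. Tfpi, on the same list, ran opposite to F3 without a call (difference 2.09, standard error 0.44, limma adjusted p = 0.114). Its level was 6.97 and 8.16 in M1 and M2, against 5.49 and 5.45 in E1 and E2. Limma called 0 of 9 receptors and ligands that act with endoglin (1 at an unadjusted p under 0.05). Acvrl1, the partner of endoglin in endothelium, had a difference of 0.00 (standard error 0.15). Among 7 named relatives and ligands of Cd34, Prom1 and Cd24a, Prom2 and the adhesion molecule L1cam were called, both lower in M1 and M2. Podxl, a relative of Cd34, was at 5.99 in M1 and 10.86 in M2, against 5.96 in E1 and 6.01 in E2.

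For the 4 members that spanned at least 4-fold, the genes with the most similar pattern were found by the root mean square difference of centred log2 levels over the 4 lines. The nearest to Procr were Alox5ap (0.03) and Crabp2 (0.09), and the nearest to Prom1 were Adamts3 (0.13) and Prss8 (0.13). The nearest to Plet1 were Stac2 (0.33) and Dock6 (0.34). No gene came as near to Nt5e, for which the smallest values were 0.89 for Ttc39b and 0.94 for Trim30a. Trim30a was at 11.28 and 10.37 in M1 and M2, against 5.68 and 11.95 in E1 and E2. Over 4 lines such nearness is a description of these arrays.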

How the data were processed

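RNA of E1, E2, M1 and M2 was measured on Affymetrix MoGene 1.0 ST arrays, 1 per line. The deposited values are log2 expression levels made by the authors. The submitters' processing notes name Partek; its version, the background correction and the normalization are not given in the sources used here. They were used unscaled, and array medians were between 6.75 and 6.85. Precision is limited by the number of arrays.

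Of 35556 probe sets, 21789 are annotated with 1 gene symbol, 1621 with several and 12146 with none. Groups followed the sample descriptions. The 23410 probe sets with a symbol were tested with limma 3.58.1 in R 4.3.3 (lmFit, eBayes, two-sided) with Benjamini-Hochberg adjustment at 0.05. The tests were also run on simulated data with independent normal noise, whose spread came from the fit of M1 and M2 against E1 and E2. Such data cannot check whether M1 varies like the other lines. Named genes were the members, marker genes, and up to 4 genes per list with the largest difference and any called. The 2 genes nearest in pattern to each member spanning at least 2 on the log2 scale were also named. Erbb2, Itga2, Itga6, Itgb1, Cd14, Lgr6, Thbd, Acvrl1, Anpep, Ly6d and Ly6k were named after their values were seen. Members and lists were chosen with earlier results of these data known. Alternatives were other scalings, filters, annotation and variance models, a clone number block and leaving out each line.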

Additional observations from a re-analysis of the deposited data

How the results depend on the processing

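The number of members called between the types stayed at 2 with a trended variance, with quantile-normalized or median-centred arrays, among brighter probe sets, among those with 1 symbol and with the clone number block. It was 1 with values below the median of the file raised to it, where Prom1 was lost, and between 0 and 3 when each line was left out, with 0 without E1 or without E2 and with Plet1 added without M2. The count over all probe sets was 874, 223 with the raised floor, and between 0 and 1879 when each line was left out. The labels use clone numbers as names of the lines and state no pairing. Across probe sets E1 minus E2 and M1 minus M2 had a correlation of -0.04. This value describes all probe sets together and cannot decide whether some of them vary by clone number. With the clone number as a replicate block, 319 probe sets and both Prom1 and Procr were called.

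For M1 against E1, E2 and M2, leaving out M2 gives the same fit as the comparison of the types without M2. That setting is no separate check of M1, for the members or for all probe sets. In each setting that kept M2, limma called 0 members. Over all probe sets it called 22, with 40 after centring, 0 among the brighter probe sets (966 at an unadjusted p under 0.05), 293 with the raised floor, 62 with a trended variance, and between 0 and 1879 when a line was left out (0 without E1 or without E2, with 873 and 865 at an unadjusted p under 0.05).

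Some uncalled differences changed sign. Between the types, Eng was at -0.0347 both with quantile normalization and with centring, and Thy1 at -0.0435, -0.0394 and, with the raised floor, -0.0305. When each line was left out, the difference was between -0.0937 and 0.112 for Eng, -0.0831 and 0.0916 for Thy1, -0.0392 and 0.208 for Ly6e and -1.60 and 4.19 for Nt5e. For M1 against the other lines it was between -0.00856 and 0.0788 for Thy1 and between -1.94 and 0.96 for Nt5e. Nt5e changed sign with the epithelial clone that was kept; for Eng, Thy1 and Ly6e the cause was not tested.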

Other observations

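The genes next to the members on the chromosome, 2 protein-coding genes on each side in the order of the RefSeq annotation, were read on the same arrays after the members' values had been seen. Of 37 such genes, 32 had a named probe set, and 3 of their 33 probe sets were called between the types, all higher in M1 and M2, against 3.73% of all probe sets called and 1.72% called higher. Both neighbours on the lower-coordinate side of Plet1 were among them. Ncam1, a neural cell adhesion molecule, was at 11.94 and 11.51 in M1 and M2, against 6.14 and 6.42 in E1 and E2 (difference 5.44, standard error 0.21, limma adjusted p = 0.00323), and Ttc12 at 8.64 and 8.61 in M1 and M2, against 5.73 and 5.82 in E1 and E2 (difference 2.84, standard error 0.11, limma adjusted p = 0.0032). These levels were high in M1 and M2 alike, whereas Plet1 was low in M1 and high in M2. The third was Ak1, an adenylate kinase next to Eng, at 11.79 and 11.12 in M1 and M2, against 9.38 and 9.20 in E1 and E2 (limma adjusted p = 0.0413). Neighbours of Prom1, Procr and Nt5e were not called. Tapt1, near Prom1, had differences of 0.27 and 0.24 at its probe sets, and Snx14, next to Nt5e, was at 10.00 and 9.66 in M1 and M2, against 10.05 and 10.00 in E1 and E2, where Nt5e was 55.4-fold apart between E2 and E1.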
